A study of Mus musculus with 9 samples.

Results

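The respiratory chain genes described here are the nuclear genes for subunits of complexes I to V of the inner mitochondrial membrane, for cytochrome c and for the complex I assembly factors named Ndufaf. They were chosen by gene symbol alone: every probe set with a single symbol beginning with Nduf, Atp5 or Uqcr, with Cox and a number from 4 to 8, or naming Sdha to Sdhd or Cycs. The rule took 183 of 45101 probe sets, which name 91 of the 18193 genes with a probe set of their own. Another 10 probe sets matched the rule but carried several symbols and were left out.

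RNA from mouse cells was hybridised to 9 Affymetrix arrays, 3 in each of 3 groups, and all groups came from the same embryonic stem (ES) cell line. This line, Ainv15, carries a Cdx2 transgene with a V5 tag that doxycycline switches on, so the construct was present in the controls too. The Cdx2 and FGF cultures were embryoid bodies collected on day 5. They were given all-trans retinoic acid (1 µM) and a hedgehog agonist (0.5 µM) on day 2. Doxycycline (2 µg/ml, lasting 6 to 8 hours) and basic FGF (100 ng/ml) were added on day 3. The motor neuron cultures were day 5 cultures with retinoic acid and hedgehog agonist alone, and the ES cells were collected at day 0, having been grown on fibroblasts stopped from dividing with mitomycin C. The protocol also mentions 100 nM retinoic acid and 100 nM hedgehog agonist after a wash, without saying for which cultures. Because doxycycline, Cdx2 and FGF came as a set, the share of each in a difference cannot be told apart. The line is a single modified clone as far as the labels go, and nothing states that the 3 arrays of a group were separate cultures, so p-values measure how arrays vary, and that variation may be technical.

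The respiratory chain passes electrons from NADH (complex I) and succinate (complex II) through complex III and cytochrome c to oxygen at complex IV, and pumps protons as it does so. Complex V, the ATP synthase, lets those protons back through its membrane part, Fo, and uses the flow to make ATP in its catalytic head, F1. Most subunits are encoded in the nucleus and expressed in nearly every cell, while a few complex IV subunits have tissue isoforms, such as Cox7a1 in muscle, Cox6b2 and Cox7b2 in testis and Cox4i2 in lung. ES cells are known for leaning on glycolysis, and neurons for a high demand on oxidative phosphorylation.

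All values are log2 expression levels, and a difference is the first-named group minus the second. Each gene is represented by its brightest probe set, and levels are compared between groups only, never between genes. A gene called higher or lower had an adjusted p under 0.05 together with a log2 difference of at least 1, which is a 2-fold change. Of the 91 genes, 84 were over 4 on all 9 arrays and 77 averaged 10 or more in ES cells. The filter on dim signals left 86 to test. Cox4i2 passed it on its levels in Cdx2 and FGF cultures alone and Cox7b2 on those in ES cells alone, so that both had to differ. Ndufb1, Ndufb4, Cox8b, Cox8c and Ndufa4l2 were not tested.

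The ES arrays stood apart from the other 6 in their quality controls, and every comparison with ES cells carries this. The 3′ probe set for 18S rRNA averaged 15.4 ± 0.05 in Cdx2 and FGF cultures, 15.5 ± 0.03 in motor neuron cultures and 6.35 ± 0.43 in ES cells (SD, n = 3 each). For the Actb control, the 3′ level less the 5′ level was -0.04 ± 0.05, -0.04 ± 0.01 and 2.07 ± 0.22 in the same order, a larger 3′ excess in ES cells. The gap was wider for the Tfrc control, at -1.6 ± 0.16, -1.5 ± 0.09 and 6.25 ± 0.64. It was small for Gapdh, at 0.52 ± 0.02, 0.62 ± 0.03 and 0.80 ± 0.22. The level of the BioB 3′ control was 11.5 ± 0.11, 11.5 ± 0.07 and 13.7 ± 0.65. For 18S rRNA, Actb, Tfrc and BioB the ES arrays lay outside the range of each day 5 group. Each gave an exact two-sided permutation p of 0.1, the smallest that 3 against 3 arrays can give. For Gapdh this test gave 0.2 for motor neuron cultures against ES cells and 0.1 for Cdx2 and FGF cultures against ES cells. The part of these control differences in the comparisons with ES cells was not tested. The median SD of the tested members between arrays was 0.056 in Cdx2 and FGF cultures, 0.063 in motor neuron cultures and 0.21 in ES cells. Cdx2 itself, the induced gene, was at 8.27, 8.99 and 8.59 in Cdx2 and FGF cultures and at 2.24 or less on the other 6 arrays. Cell identity followed the labels for most markers: 7 of 8 ES cell markers were under 4 on every day 5 array of both groups. Of 7 motor neuron markers, 6 were tested, and each day 5 group had all 6 called higher than ES cells. Between the day 5 groups, 4 of the 6 were called lower with Cdx2 and FGF and none higher. The untested marker, Chat, which makes acetylcholine, was at the lowest value on all 9 arrays. Slc18a3, its vesicular transporter, was at 4.12, 4.01 and 3.67 in Cdx2 and FGF cultures, against 11.29, 11.37 and 10.65 in motor neuron cultures.

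In motor neuron cultures against ES cells, respiratory chain transcripts were mostly higher, by small amounts. Of 86 genes tested, 55 were higher and 12 lower at an adjusted p under 0.05 whatever the size, and 19 did not pass (limma, Benjamini-Hochberg over 10911 genes). Among all genes tested, 34.2% were higher and 39.2% lower by this rule, against 64% and 14% of the respiratory chain. With the limit of 1 on the log2 difference, 20 were called higher and 7 lower, where 25.9% of all genes were called higher and 30.7% lower. The share called higher, 23.3%, was thus close to the background, and the share called lower, 8.14%, was below it. The median log2 difference was 0.54 for the members and -0.08 for all genes. With arrays centred on their medians, these medians became 0.94 and 0.35, and 39 members of 88 then tested were called higher and 6 lower. Of these calls 86.7% were higher, against 74.1% as deposited. The centring moved all genes upward too, with 33.5% then called higher and 23.9% lower. Quantile normalization again gave 20 members higher and 7 lower. Per array, the median level of the tested members ran from 13.27 to 13.35 in motor neuron cultures and from 12.70 to 12.90 in ES cells, and the groups did not overlap. In bulk samples such as these, fewer cells of a type and less RNA per cell cannot be told apart.

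**Figure D1:**
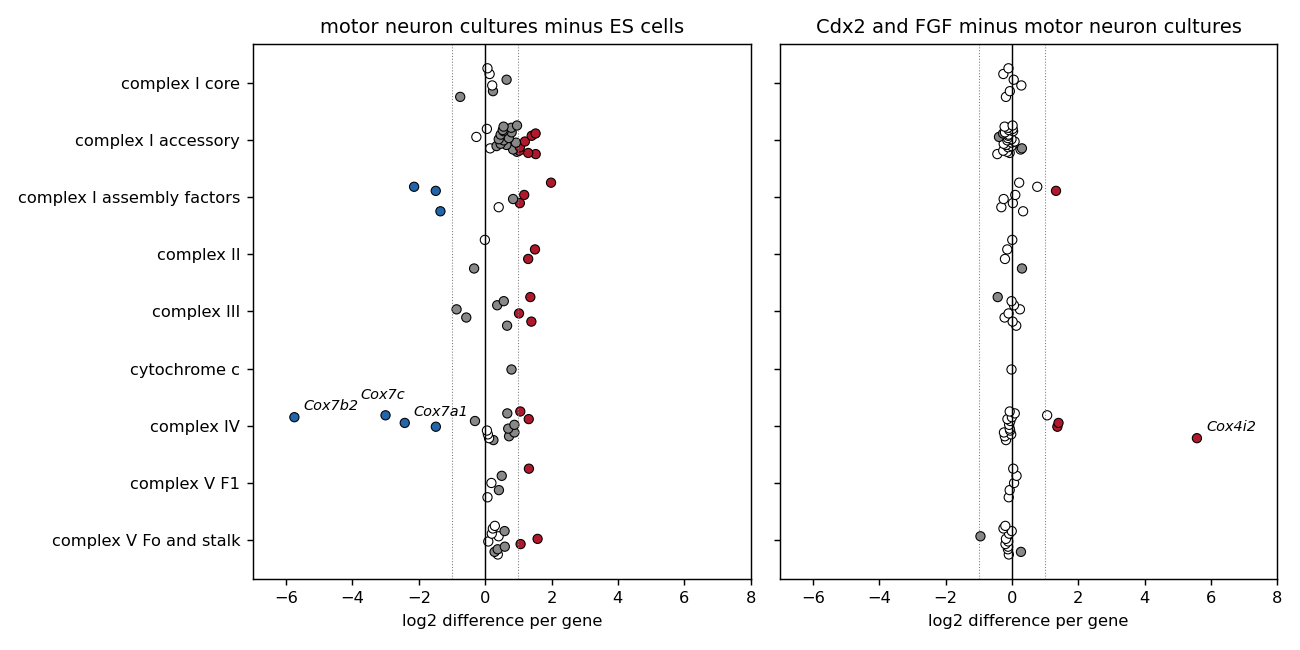
Log2 difference of each of the 86 tested genes (1 point per gene), by complex, for motor neuron cultures minus ES cells (left) and Cdx2 and FGF cultures minus motor neuron cultures (right). Red and blue points were called higher and lower, grey points passed the test below the size limit (dotted lines at 1 and -1) and white points did not pass; most points on the left lie above 0, while on the right 75 of 86 did not pass.

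The counts by complex rest on few genes each, are given as a description, and stand beside the shares over all genes of 34.2% higher and 39.2% lower at any size and 25.9% and 30.7% called. Of 26 accessory subunits of complex I, which surround the catalytic core, 23 were higher at any size and none lower, with 7 called and a median log2 difference of 0.75. Of the 6 core subunits, which carry the electrons, 2 were higher, 1 was lower and none reached the size limit. Complex II had 2 genes called higher of 4, complex III had 3 of 8, and neither had a gene called lower. Complex V had 9 of 17 higher at any size and none lower, with 1 of 5 F1 genes and 2 of 12 genes of Fo and the stalks called. Complex IV had 8 of 16 higher and 5 lower at any size, of which 2 and 4 were called.

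Promoters are shown for 3 genes called higher, each with a match, and for Cox7a1, called lower, which holds none. They are examples and do not compare genes called higher with genes called lower. Not every gene called higher held a match, and Ndufaf1, called lower, held an ETS match. The sequences are printed because sites for nuclear respiratory factor 1 (NRF1) and for ETS factors are a known feature of respiratory chain promoters. The windows are RefSeq sequence of GRCm38.p6 from 250 bases before to 50 after the start of the gene, 300 bases each. Atp5k lies at chr5:108434350-108434649 on the minus strand, Uqcrc1 at chr9:108936398-108936697, Sdhb at chr4:140961021-140961320 and Cox7a1 at chr7:30183921-30184220, all 3 on the plus strand. Capitals mark every match, on either strand, to the NRF1 core GCATGCGC or to the ETS motif CCGGAAG. Where the core overlaps its own reverse complement, GCGCATGC, the match is the full NRF1 palindrome, which therefore counts as a core match too.
Atp5k: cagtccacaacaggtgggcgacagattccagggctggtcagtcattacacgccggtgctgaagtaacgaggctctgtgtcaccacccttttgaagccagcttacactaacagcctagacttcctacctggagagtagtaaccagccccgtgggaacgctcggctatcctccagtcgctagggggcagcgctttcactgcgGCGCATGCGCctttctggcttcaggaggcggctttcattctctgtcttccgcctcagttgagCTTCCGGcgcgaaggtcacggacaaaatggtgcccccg
Uqcrc1: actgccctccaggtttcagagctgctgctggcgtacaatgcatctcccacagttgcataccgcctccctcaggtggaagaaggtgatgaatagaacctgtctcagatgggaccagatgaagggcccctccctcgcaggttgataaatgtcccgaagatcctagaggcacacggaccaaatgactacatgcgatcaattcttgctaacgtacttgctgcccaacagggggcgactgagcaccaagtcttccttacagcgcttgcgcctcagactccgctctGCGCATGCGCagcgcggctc
Sdhb: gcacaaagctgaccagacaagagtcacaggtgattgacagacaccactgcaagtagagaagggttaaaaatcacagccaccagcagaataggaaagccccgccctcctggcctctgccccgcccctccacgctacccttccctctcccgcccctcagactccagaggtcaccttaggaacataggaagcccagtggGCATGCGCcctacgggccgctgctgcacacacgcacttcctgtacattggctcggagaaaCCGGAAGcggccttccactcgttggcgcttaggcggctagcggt
Cox7a1: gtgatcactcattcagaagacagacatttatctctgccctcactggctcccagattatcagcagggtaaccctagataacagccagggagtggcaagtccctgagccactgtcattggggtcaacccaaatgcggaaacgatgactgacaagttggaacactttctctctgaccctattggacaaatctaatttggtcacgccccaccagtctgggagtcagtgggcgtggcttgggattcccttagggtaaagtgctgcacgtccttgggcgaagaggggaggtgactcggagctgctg

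A window was at hand for 75 of the 91 genes. The full NRF1 palindrome was found in 6 of them (8%), against 1.07% of the 27025 genes with a window. The core was found in 12 (16%), against 3.05%, and the ETS motif in 19 (25.3%), against 9.93%. Of the 16 genes called higher that had a window, 3 held the palindrome, 6 the core and 7 the ETS motif. Of the 6 genes called lower that had a window, none held the palindrome or the core and 1, Ndufaf1, held the ETS motif. The Cox7a1 window held no match to these letters.

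Ndufb9, an accessory subunit of complex I, had log2 levels of 13.73, 13.75 and 13.61 in motor neuron cultures, against 12.07, 12.25 and 12.21 in ES cells. Its log2 difference was 1.52 (SE 0.08, adjusted p = 1.85e-07, limma). All 3 motor neuron arrays lay above all ES arrays, as they did for 23 of the 26 accessory genes and for 55 of the 86 members, where 34.5% of all genes tested did so. They lay below all ES arrays for 12 members, where 39.4% of all genes did so. Genes named because they were called mostly do not overlap, so statements of no overlap here and below describe the values and add no support. Ndufa1, a small membrane subunit encoded on the X chromosome, was at 13.74, 13.61 and 13.59 in motor neuron cultures, against 12.07, 11.64 and 12.65 in ES cells. The ES arrays were spread over about 1 log2 unit, and the log2 difference of Ndufa1, 1.52, had an SE of 0.21 (adjusted p = 1.1e-04). Ndufb7 differed by 1.40 (SE 0.09) and Ndufab1, the mitochondrial acyl carrier protein, by 1.20 (SE 0.12). For Ndufab1 the mean of all its probe sets, dim and untested ones included, gave a log2 difference of 0.63, below the size limit. Its other bright probe set was at 13.38, 13.41 and 13.41 in motor neuron cultures, against 12.17, 11.92 and 11.85 in ES cells.

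Among the core subunits, Ndufs1, the largest subunit and the holder of several iron-sulphur clusters, was the one that fell. It was at 11.03, 11.12 and 11.09 in motor neuron cultures, against 11.87, 11.66 and 11.97 in ES cells. This is a log2 difference of -0.75 (SE 0.12, adjusted p = 2.5e-04) with no overlap. It was picked for description after its values were seen.

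The complex I assembly factors, which build the complex without staying in it, had members called in each direction. Ndufaf8, Ndufaf5 and Ndufaf3 were called higher, and Ndufaf7, Ndufaf6 and Ndufaf1 lower, of 8 tested, where 25.9% of all genes were called higher and 30.7% lower. Ndufaf8 was at 12.18, 12.25 and 12.29 in motor neuron cultures, against 9.94, 9.74 and 11.09 in ES cells. Its log2 difference of 1.98 (SE 0.29, adjusted p = 1.8e-04) was the largest rise of any member, and the third ES array stood above the other ES arrays. Ndufaf7, a mitochondrial methyltransferase, was at 7.92, 8.27 and 8.57 in motor neuron cultures, against 10.79, 10.61 and 9.79 in ES cells. It fell by 2.14 on the log2 scale (SE 0.29, adjusted p = 1.01e-04). Ndufaf6 was at 8.00, 7.95 and 8.30 in motor neuron cultures, against 9.62, 9.62 and 9.49 in ES cells, a difference of -1.49 (SE 0.18, adjusted p = 4.05e-05). Ndufaf1, which acts with Ecsit on the membrane arm, differed by -1.35 (SE 0.17), Ndufaf5 by 1.18 (SE 0.16) and Ndufaf3 by 1.04 (SE 0.23). No motor neuron array overlapped an ES array for any of these 6 genes, where 34.5% of all genes lay above and 39.4% below without overlap. The log2 difference of Ndufaf3 was 0.80 without the third ES array and 0.98 without the second motor neuron array, below the size limit. Median centring brought Ndufaf1 to -0.93.

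**Figure D2:**
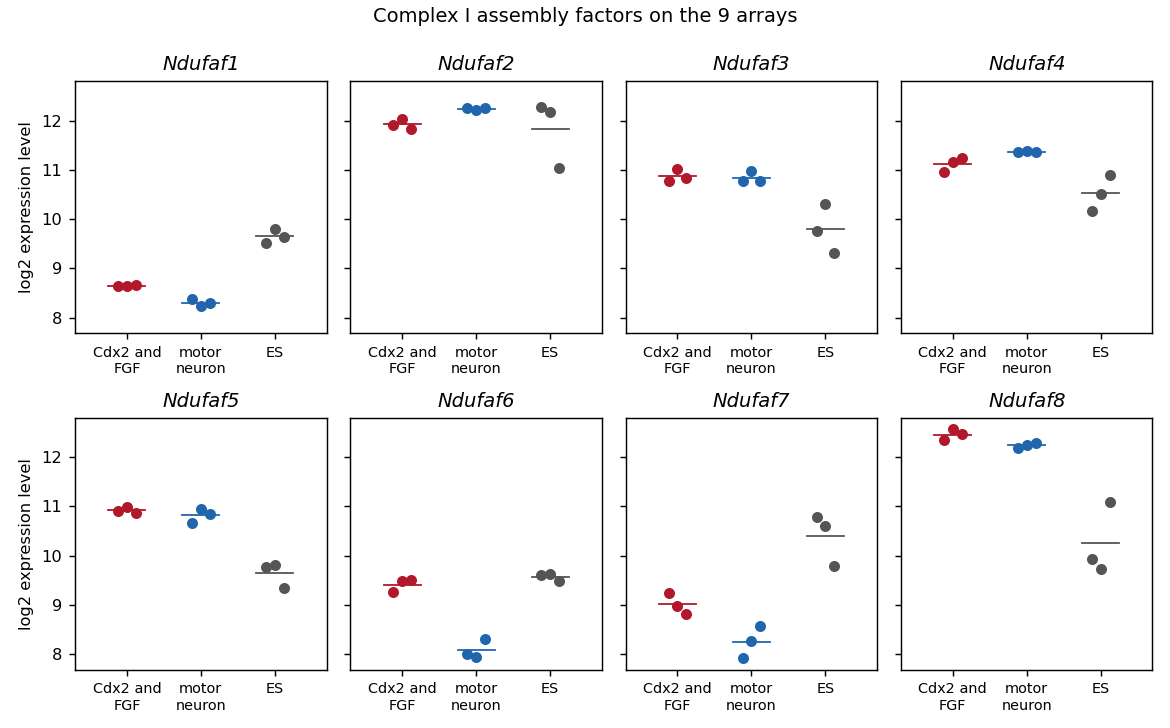
Log2 expression level of the 8 complex I assembly factors on the 9 arrays (points) with group means (lines), with Cdx2 and FGF cultures, motor neuron cultures and ES cells from left to right. Ndufaf1, Ndufaf6 and Ndufaf7 have their lowest levels in motor neuron cultures, and Ndufaf6 lies between 9.26 and 9.50 in Cdx2 and FGF cultures, beside 9.49 to 9.62 in ES cells.

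Complex II, succinate dehydrogenase, is the one member complex with no mitochondrially encoded subunit. Sdhb, the iron-sulphur subunit, was at 12.93, 12.92 and 12.84 in motor neuron cultures, against 11.36, 11.46 and 11.99 in ES cells. Sdhc, a membrane anchor, was at 12.50, 12.56 and 12.39 in motor neuron cultures, against 11.24, 11.10 and 10.62 in ES cells. Neither gene overlapped between groups, with log2 differences of 1.30 for Sdhb (SE 0.15, adjusted p = 3.73e-05) and 1.50 for Sdhc (SE 0.15, adjusted p = 1.36e-05). Sdha, the flavoprotein, was slightly lower, at 12.18, 12.33 and 12.36 in motor neuron cultures against 12.50, 12.65 and 12.72 in ES cells. Its difference of -0.33 (SE 0.10, adjusted p = 0.0099) stayed below the size limit. A second bright Sdha probe set overlapped between the groups, at 12.07, 12.25 and 12.18 in motor neuron cultures against 12.36, 11.86 and 12.05 in ES cells. The other anchor, Sdhd, gave a result that depended on the probe set. The brighter, of the x_at kind, which can pick up related sequences, differed by -0.01 (SE 0.09, adjusted p = 0.93). The other was at 12.38, 12.43 and 12.49 in motor neuron cultures, against 10.44, 10.85 and 10.92 in ES cells, a difference of 1.70 (SE 0.13, adjusted p = 2.33e-06 over probe sets).

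In complex III, Uqcr11, Uqcrq and Uqcrc1 were called higher. Uqcrc1, a core protein of the matrix side, was at 11.91, 12.03 and 11.96 in motor neuron cultures, against 11.17, 10.72 and 10.96 in ES cells, a log2 difference of 1.02 (SE 0.13, adjusted p = 6.1e-05). Uqcrc2, its partner core protein, went the other way. It was at 13.26, 13.41 and 13.36 in motor neuron cultures, against 14.17, 14.01 and 14.44 in ES cells, a difference of -0.86 (SE 0.11, adjusted p = 4.77e-05). Neither of these genes overlapped between the groups. Uqcrb, a ubiquinone-binding subunit, was lower too, by 0.57 (SE 0.12, adjusted p = 0.0014). Uqcrc2 and Uqcrb were named after their values were seen. Without the second ES array, or without the second motor neuron array, Uqcrc1 was at 0.90 and 0.99. Uqcr11 differed by 1.39 (SE 0.21) and Uqcrq by 1.36 (SE 0.11), and over the mean of its probe sets Uqcrq differed by 0.05 (adjusted p = 0.74). Cycs, cytochrome c, carries electrons between complexes III and IV. It was at 13.73, 13.80 and 13.78 in motor neuron cultures, against 12.95, 12.94 and 13.08 in ES cells, a difference of 0.78 (SE 0.07, adjusted p = 8.54e-06). A second Cycs probe set differed by -1.12 (SE 0.21, adjusted p = 9.3e-04 over probe sets), so the direction for this gene is uncertain.

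Complex IV, cytochrome c oxidase, held the members with the widest differences. Cox7a2l, which links complexes III and IV into supercomplexes, was at 13.68, 13.78 and 13.66 in motor neuron cultures, against 12.43, 12.74 and 12.01 in ES cells (log2 difference 1.31, SE 0.16, adjusted p = 3.9e-05). Ndufa4, first described in complex I and now known as a complex IV subunit, differed by 1.06 (SE 0.08). These 2 genes were the ones called higher, and Cox7b2, Cox7c, Cox7a1 and Cox6b2 were called lower. Cox7b2 was at the lowest value, 2.17, on all 3 motor neuron arrays, against 9.19, 7.03 and 7.53 in ES cells. It was therefore at least 15.1-fold lower, with values under 4 raised to 4. Because Cox7b2 passed the filter on its ES levels alone, no p-value is given for it. Cox7a1 was at 6.38, 6.69 and 6.13 in motor neuron cultures, against 9.66, 8.32 and 8.49 in ES cells, a log2 difference of -2.42 (SE 0.36, adjusted p = 1.9e-04). Cox6b2 was at 10.54, 10.81 and 11.16 in motor neuron cultures, against 12.94, 12.42 and 11.61 in ES cells, a difference of -1.49 (SE 0.29, adjusted p = 0.0013). The groups did not overlap for any of these 3 tissue isoforms, although ES arrays were spread over more than 1 log2 unit in each. Cox7c was measured by a dim probe set, with a mean log2 level of 5.20 in motor neuron cultures and 8.20 in ES cells, and was 8.02-fold lower (SE 0.39 on the log2 scale, adjusted p = 6.9e-05).

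Widely expressed counterparts were on the same arrays. Cox6b1, the counterpart of Cox6b2, was higher by 0.69 (SE 0.14), and Cox7a2, that of Cox7a1, was lower by 0.31 (SE 0.06). Cox6a1 was higher by 0.88 (SE 0.10), Cox8a by 0.67 (SE 0.09) and Cox4i1 by 0.25 (SE 0.07), all 5 at adjusted p-values under 0.05. Of their tissue isoforms, Cox6a2 differed by 0.05 and did not pass, Cox4i2 was under 4 on all arrays of both groups, and Cox8b and Cox8c were not tested. Markers of other cells differed between these groups too. Of 5 testis germ cell markers, 4 were tested and 3 were lower in motor neuron cultures: Ddx4, for one, was at 2.17 on every motor neuron array, against 10.74, 10.63 and 10.90 in ES cells, while Tex101 was at the lowest value throughout. Ddx4 and Dazl passed the filter on their ES levels alone, so that both had to differ. The log2 of the summed level of the list ran from 8.83 to 9.14 in motor neuron cultures and from 11.39 to 11.68 in ES cells. For 7 fibroblast markers, the feeder layer's kind of cell, the sum ran from 5.10 to 5.11 in motor neuron cultures and from 10.39 to 13.00 in ES cells, with 4 of 4 tested lower and Lum near the lowest value in every group. Thy1, among these 4, passed the filter on its ES levels alone. The part of feeder cells, or of cells with germ cell transcripts, in the isoform levels was not tested.

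**Figure D3:**
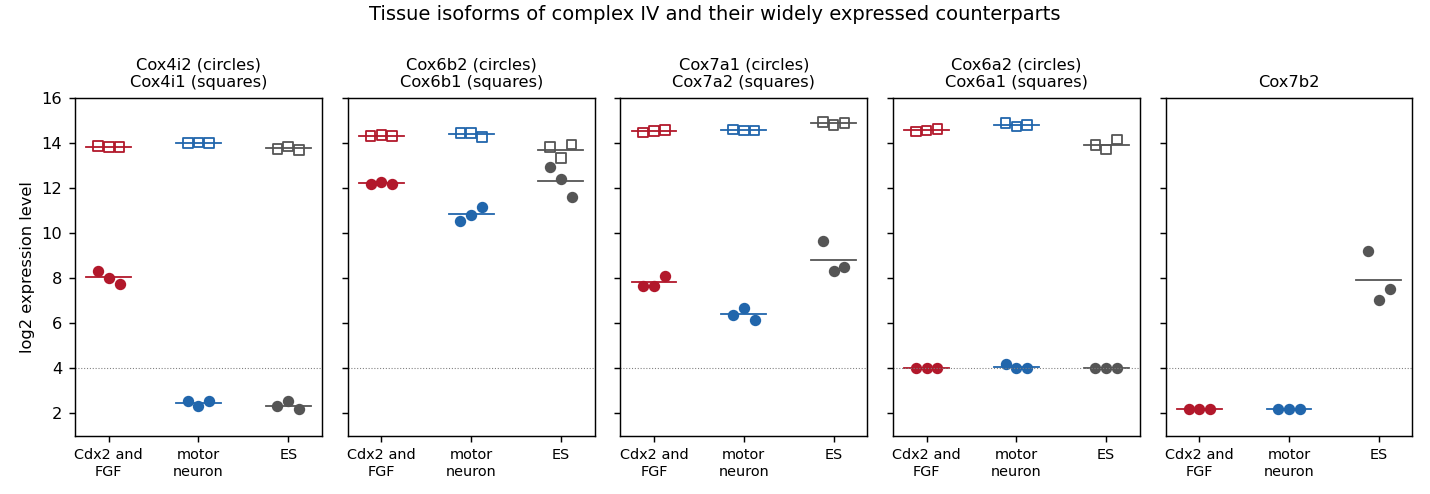
Log2 expression level of complex IV tissue isoforms (filled circles) and their widely expressed counterparts (open squares) on each array, with group means as lines and a dotted line at 4, the filter on dim signals. Cox4i2 is over 7.7 in Cdx2 and FGF cultures and under 2.6 elsewhere, Cox7b2 is above the lowest value in ES cells alone, and circles and squares are different probe sets whose heights cannot be compared.

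In complex V, no gene was lower at any size by its representing probe set. A dimmer probe set of Atp5c1 was at 5.37, 4.47 and 5.37 in motor neuron cultures, against 7.94, 7.33 and 6.95 in ES cells, while the representing one did not pass. Atp5k, subunit e of Fo, was at 14.87, 14.76 and 14.85 in motor neuron cultures, against 13.34, 13.11 and 13.28 in ES cells. Its log2 difference of 1.58 (SE 0.08, adjusted p = 9.57e-08) was 2.99-fold, with no overlap. Atp5e, the epsilon subunit of the F1 stalk, was at 14.54, 14.50 and 14.44 in motor neuron cultures, against 12.46, 13.41 and 13.64 in ES cells. Its first ES array lay about 1 log2 unit below the other 2, and without it the difference of 1.32 (SE 0.25, adjusted p = 8.5e-04) became 0.96. Atp5j, coupling factor 6, differed by 1.07 (SE 0.07). The 3 genes that encode the same c subunit of the proton-conducting ring moved little: Atp5g1 by 0.38 (SE 0.16, adjusted p = 0.061), Atp5g2 by 0.28 (SE 0.07, adjusted p = 0.0044) and Atp5g3 by 0.38 (SE 0.12, adjusted p = 0.019). A dim Atp5g2 probe set was lower, but it passed the filter on its ES levels alone and so had to differ.

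Between Cdx2 and FGF cultures and motor neuron cultures, respiratory chain transcripts differed little, with 4 exceptions. Cox4i2, Cox7a1, Cox6b2 and Ndufaf6 were called higher and none was called lower, of 86 tested. Cox4i2 was tested on its levels in Cdx2 and FGF cultures alone, so that its call was fixed in advance. Before adjustment for multiple testing, limma gave p under 0.05 at any size of difference for 11 members that were higher and 11 that were lower. Of all genes tested, 11.2% were called higher and 8.61% lower. At any size, 7 members were higher and 4 lower, where 18.5% of all genes were higher and 13.5% lower, and 75 did not pass. The median log2 difference was -0.07 for the members and 0.04 for all genes. For 78 of 86 members the 95% interval of the difference lay within 1 log2 unit of 0 on either side, as it did for 50.3% of all genes tested. For the other 8 a change of 2-fold or more lay within the interval: the 4 called, and Ndufaf7, Cox7b2, Cox7c and Atp5l.

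Cox4i2 is the isoform of the subunit Cox4 known from lung and from cells short of oxygen. It was at 8.33, 8.02 and 7.74 in Cdx2 and FGF cultures, against 2.53, 2.31 and 2.52 in motor neuron cultures. In ES cells it was at 2.31, 2.53 and 2.17. All 6 arrays of the other groups lay under 4, so that Cox4i2 was at least 16.4-fold higher in Cdx2 and FGF cultures than in motor neuron cultures. Because Cox4i2 passed the filter on its Cdx2 and FGF levels alone, no p-value is given for it. Its counterpart Cox4i1 was at 13.86, 13.81 and 13.81 in Cdx2 and FGF cultures, against 13.99, 14.01 and 14.01 in motor neuron cultures, a log2 difference of -0.18 (SE 0.07, adjusted p = 0.067).

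Cox6b2, Cox7a1 and Ndufaf6, which were lower in motor neuron cultures than in ES cells, were higher in Cdx2 and FGF cultures than in motor neuron cultures. These comparisons share the motor neuron arrays. Cox6b2 was at 12.19, 12.27 and 12.16 in Cdx2 and FGF cultures, against 10.54, 10.81 and 11.16 in motor neuron cultures (log2 difference 1.37, SE 0.29, adjusted p = 0.0064). Ndufaf6 was at 9.26, 9.49 and 9.50 in Cdx2 and FGF cultures, against 8.00, 7.95 and 8.30 in motor neuron cultures (log2 difference 1.33, SE 0.18, adjusted p = 4.0e-04). Neither gene overlapped between these groups, for which the share over all genes was not counted. Cox7a1, the muscle isoform of subunit 7a, was at 7.66, 7.66 and 8.09 in Cdx2 and FGF cultures, against 6.38, 6.69 and 6.13 in motor neuron cultures. Its log2 difference was 1.41 (SE 0.36, adjusted p = 0.015) with no overlap. The Cox7a1 call was lost without the first motor neuron array (adjusted p = 0.052), without the third (0.057) and without the third Cdx2 and FGF array (0.065). Cox6a2, another muscle isoform, was at about 4 on all 9 arrays and differed by -0.05 (SE 0.18, adjusted p = 0.89).

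Muscle and fibroblast markers also differed between these groups, while germ cell markers did not. All 3 tested smooth muscle markers were called higher in Cdx2 and FGF cultures: Acta2, smooth muscle actin, was at 13.30, 13.43 and 13.39, against 3.24, 2.65 and 5.08 in motor neuron cultures. The log2 sum of the 4 markers listed ran from 14.09 to 14.18 in Cdx2 and FGF cultures, from 4.55 to 6.37 in motor neuron cultures and from 10.13 to 13.96 in ES cells. Myh11, smooth muscle myosin, was under 4 throughout. Of 13 skeletal and heart muscle markers, 3 were tested and 2 were higher. Actc1, cardiac actin, was at 12.23, 12.13 and 12.09 in Cdx2 and FGF cultures, against 2.58, 2.45 and 2.77 in motor neuron cultures, while Ckm and Myod1 were at the lowest value on all 9 arrays. Actc1 passed the filter on its Cdx2 and FGF levels alone, so that it had to differ. The log2 sum of this list ran from 12.32 to 12.54 in Cdx2 and FGF cultures and from 6.35 to 6.64 in motor neuron cultures. In ES cells, where Cox7a1 was highest, it ran from 8.03 to 8.97. Of the 7 fibroblast markers, 4 were tested and 3, the collagen genes Col1a1, Col1a2 and Col3a1, were called higher in Cdx2 and FGF cultures than in motor neuron cultures. Their log2 sum ran from 8.91 to 9.23 in Cdx2 and FGF cultures, from 5.10 to 5.11 in motor neuron cultures and from 10.39 to 13.00 in ES cells, while Lum, Dcn, Postn and Thy1 were at the lowest value on all 6 day 5 arrays. Neuron markers moved the other way, with 6 of 7 called lower. Of the 4 tested germ cell markers of the testis, where Cox6b2 is known, none was called higher or lower. The log2 sum of that list ran from 8.81 to 8.83 in Cdx2 and FGF cultures and from 8.83 to 9.14 in motor neuron cultures. Most of this sum was Prm1, at 8.59 on each Cdx2 and FGF array and at 8.95, 8.59 and 8.59 in motor neuron cultures. Ddx4, Dazl and Tex101 were at the lowest value on all 6 day 5 arrays, so that they could not differ. The part of other cells in the isoform levels was not tested.

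Below the size limit, Atp5l, subunit g of Fo, showed the largest decrease. It was at 12.26, 12.35 and 12.35 in Cdx2 and FGF cultures, against 13.24, 13.36 and 13.20 in motor neuron cultures (log2 difference -0.95, SE 0.18, adjusted p = 0.0030), with no overlap. It was named after its values were seen. Uqcrq (-0.43, SE 0.11, adjusted p = 0.018), Ndufb9 (-0.26, SE 0.08, adjusted p = 0.036) and Ndufb6 (-0.39, SE 0.12, adjusted p = 0.038) also fell. Sdha (0.30, SE 0.10, adjusted p = 0.036), Atp5g2 (0.27, SE 0.07, adjusted p = 0.014) and Ndufa7 (0.30, SE 0.10, adjusted p = 0.040) rose. The second Sdha probe set overlapped, at 12.31, 12.23 and 12.22 in Cdx2 and FGF cultures against 12.07, 12.25 and 12.18 in motor neuron cultures. Complex I core, cytochrome c and F1 genes had no member whose representing probe set passed. A dimmer probe set of the F1 gene Atp5c1 was at 6.73, 6.36 and 6.77 in Cdx2 and FGF cultures, against 5.37, 4.47 and 5.37 in motor neuron cultures.

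Set against ES cells, Cdx2 and FGF cultures also had mostly higher respiratory chain levels. Both day 5 groups were compared with the same ES arrays, so this is not a separate observation. At any size 54 members were higher and 11 lower, where 35% of all genes were higher and 35.7% lower. With the size limit 16 were called higher and 5 lower, where 25.4% of all genes were called higher and 27.2% lower. The median log2 difference was 0.49 for the members and -0.004 for all genes. Median centring gave 40 higher and 2 lower, or 95.2% of calls higher, against 76.2% as deposited, with medians of 0.93 and 0.43. Of all genes, 34.2% were then called higher and 20% lower. Quantile normalization again gave 18 members higher and 5 lower. Ndufaf8 differed by 2.21 (SE 0.29), Atp5k by 1.40 (SE 0.08), Uqcr11 by 1.42 (SE 0.21) and Sdhc by 1.36 (SE 0.15). The genes called lower were Cox7b2, Cox7c, Ndufaf7, Cox7a1 and Ndufaf1. Levels of Ndufaf6 and Cox6b2 in Cdx2 and FGF cultures overlapped those in ES cells, with differences of -0.16 (95% interval -0.56 to 0.24) and -0.12 (-0.78 to 0.55). The Ndufaf1 call, at -1.01 (SE 0.17), was lost without the second ES array (-0.93), with array weights (-0.98) and under median centring (-0.58), which also brought Ndufaf7 to -0.95, under the size limit. The Cox7a1 call, at -1.02 (SE 0.36, adjusted p = 0.029), was lost without the first ES array (-0.60, adjusted p = 0.064), without the first (0.086) or second (0.087) Cdx2 and FGF array, with no filter (0.070) and with only these 6 arrays fitted (0.065). Median centring brought Cox7a1 to -0.59 (adjusted p = 0.16).

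Each probe set was also tested by itself, since 52 of the 91 genes have several. Of the 183 probe sets, 153 passed the filter. In motor neuron cultures against ES cells 38 were called higher and 12 lower, where 32.7% of the 19544 probe sets tested were called higher and 27.2% lower. At any size 93 were higher and 22 lower, where the shares were 40.1% and 34.4%. In Cdx2 and FGF cultures against motor neuron cultures 8 were called higher and 0 lower, where the shares were 11.1% and 8.79%. At any size 11 were higher and 5 lower there, where the shares were 17.2% and 13%. In Cdx2 and FGF cultures against ES cells the counts were 32 and 9, where the shares were 32.2% and 23.9%, and at any size 91 and 22, where the shares were 40.4% and 31.1%. Of 45 genes with several tested probe sets, none had probe sets called in opposite directions. In motor neuron cultures against ES cells, 18 of the 45 had every tested probe set higher at any size. For 5 genes, Atp5g2, Cycs, Ndufaf4, Ndufb2 and Uqcr10, probe sets passed the test in opposite directions at any size, and they are described for that reason. The lower probe sets of Atp5g2 and Ndufb2 passed the filter on their ES levels alone, so that both had to differ. A dim Atp5g2 probe set, at 2.17, 2.24 and 2.24 in motor neuron cultures against 4.60, 6.75 and 5.79 in ES cells, was at least 3.29-fold lower with values under 4 raised to 4, where the bright one differed by 0.28 on the log2 scale. For Uqcr10, a small complex III subunit, the probe sets also gave different sizes in Cdx2 and FGF cultures. The brightest differed by 0.13 (SE 0.12) from motor neuron cultures, while the others differed by 1.84 (SE 0.19, adjusted p = 9.7e-05) and 1.11 (SE 0.17, adjusted p = 0.0013). Probe sets of a gene can read different transcript ends or isoforms, and the files do not say which applies here.

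**Figure D4:**
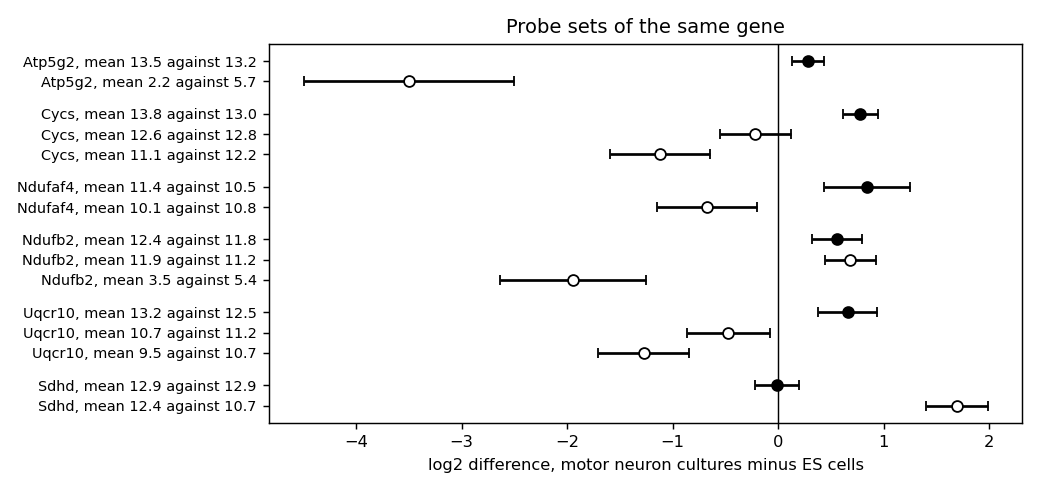
Log2 difference with its 95% interval for every tested probe set of 6 genes, motor neuron cultures minus ES cells, where filled points are the probe sets that represent the gene and each label gives the mean level in motor neuron cultures against ES cells. Atp5g2, Cycs, Ndufaf4, Ndufb2 and Uqcr10 have probe sets on both sides of 0, and for Sdhd the representing probe set is at -0.01 and the other at 1.70.

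Other mitochondrial gene lists were set beside the respiratory chain. Of 20 tested regulators of mitochondrial biogenesis and mitochondrial DNA upkeep, 12 were called lower and none higher in motor neuron cultures against ES cells, with a median log2 difference of -1.22, where 30.7% of all genes were called lower and 25.9% higher. Ppargc1b, a coactivator of respiratory genes, averaged 2.62 in motor neuron cultures and 6.16 in ES cells, at least 4.46-fold lower. Like Cox7b2, Ppargc1b passed the filter on its ES levels alone. Mgme1, a mitochondrial DNA nuclease, fell by 3.17 (SE 0.32), and Mterf1a, a mitochondrial transcription factor, fell by 3.08 (SE 0.44). Against motor neuron cultures, 1 of the 20 in Cdx2 and FGF cultures, Mgme1, was called higher, by 1.28 (SE 0.32), and none lower. Of 76 mitochondrial ribosomal proteins, 14 were called higher and 8 lower in motor neuron cultures against ES cells, both below the shares of 25.9% and 30.7% over all genes. Cdx2 and FGF cultures had 1 of them, Mrpl45, called higher than motor neuron cultures and none lower.

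Assembly factors outside the Ndufaf names had 8 called higher and 9 lower of 38 in motor neuron cultures against ES cells, where 25.9% of all genes were called higher and 30.7% lower. Sco1, a copper chaperone for complex IV, averaged 2.64 in motor neuron cultures and 5.75 in ES cells, at least 3.37-fold lower. Sco1 passed the filter on its ES levels alone. Cox19, another copper-handling factor, rose by 2.78 (SE 0.29) and Sdhaf1, which assembles complex II, by 2.00 (SE 0.19). Between Cdx2 and FGF cultures and motor neuron cultures, Nubpl, which delivers iron-sulphur clusters to complex I, differed by 1.24 (SE 0.16), Cox18 by 1.13 (SE 0.20) and Cox19 by -1.01 (SE 0.29), the 3 calls among the 38. Of 6 tested carriers and porins, Slc25a4, an ADP/ATP carrier, was the one called, at 1.05 (SE 0.14) in motor neuron cultures against ES cells. ND5, the one mitochondrially encoded subunit with a probe set, differed by -0.31 (SE 0.09, adjusted p = 0.0099) in motor neuron cultures against ES cells. It differed by -0.26 (SE 0.09, adjusted p = 0.045) between Cdx2 and FGF cultures and motor neuron cultures.

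Among the enzymes that feed the chain, single genes had wide differences. Of 24 genes of pyruvate entry and the citric acid cycle, 2 were called higher and 6 lower in motor neuron cultures against ES cells, shares under those of all genes. Pdk4, a kinase that shuts pyruvate dehydrogenase, averaged 2.17 in motor neuron cultures and 11.92 in ES cells, at least 242.2-fold lower. Pdk4, too, passed the filter on its ES levels alone. Pdk2, another such kinase, was at 7.53, 6.87 and 6.65 in motor neuron cultures, against 5.02, 2.98 and 2.17 in ES cells, of which the last 2 are under 4. With values under 4 raised to 4, its log2 difference was 2.67 (adjusted p = 5.05e-04 on the values as deposited). The opposing phosphatase Pdp1 was higher by 2.90 (SE 0.28). Cdx2 and FGF cultures had 2 of these called higher than motor neuron cultures and 2 lower, among them Pdk3 at 1.64 (SE 0.19) and Mpc1, a subunit of the pyruvate carrier, at -1.53 (SE 0.17). Of 19 glycolysis and hypoxia genes, 5 were called higher and 4 lower in motor neuron cultures against ES cells, against 25.9% and 30.7% of all genes. Between Cdx2 and FGF cultures and motor neuron cultures, 4 were called higher and 1 lower, against 11.2% and 8.61% of all genes. Pfkp, the platelet-type phosphofructokinase, averaged 10.31 in Cdx2 and FGF cultures, 6.28 in motor neuron cultures and 12.58 in ES cells. Ldhb, a lactate dehydrogenase subunit, averaged 10.87 in Cdx2 and FGF cultures, 12.98 in motor neuron cultures and 14.17 in ES cells.

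**Figure D5:**
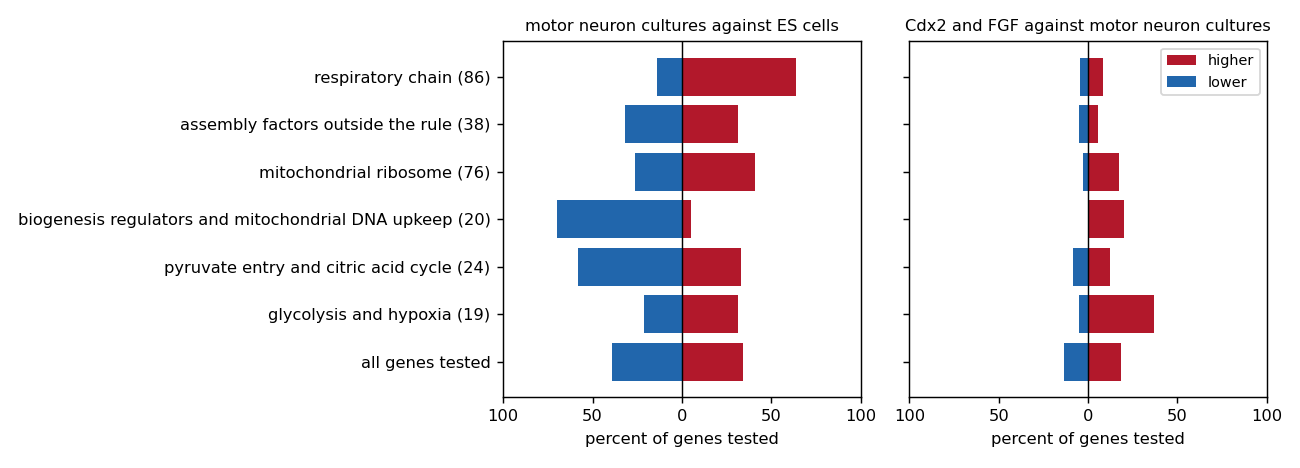
Share of tested genes that were higher (red, to the right) or lower (blue, to the left) at an adjusted p under 0.05 of any size, for the respiratory chain, 5 other lists and all genes tested, with the number tested in brackets. In the left panel (motor neuron cultures against ES cells) 64% of respiratory chain genes were higher, against 34.2% of all genes, and in the right panel (Cdx2 and FGF cultures against motor neuron cultures) 8.14%, against 18.5%.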

How the data were processed

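Each probe set had a log2 value per array in the table deposited by the authors. Per the labels' protocols, amplification and labelling used a NuGEN Ovation kit, and GCRMA and limma are named, without versions, in the submitters' processing notes. That the scale is log2 was inferred from the range, which ran from a floor of 2.165 to 16.12. Genes were named from the platform annotation, and the 91 members' Entrez identifiers were all found in the GRCm38.p6 gene table.

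Of several probe sets for a gene, the one with the highest mean was used, and it was tested when over 4 on at least 3 of 9 arrays. A model of group means over all arrays was fitted in limma 3.58.1 (lmFit, eBayes with intensity trend, 6 residual degrees of freedom) in R 4.3.3, without further normalization, over 10911 genes, and checked on simulated data. The probe set fit covered 19544 probe sets. Motifs were searched with Python 3.11.15. Replicate numbers did not pair arrays, and no correlation of same-numbered deviations exceeded 0.1. Precision is limited by the number of arrays.

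The members, lists and tests were chosen with earlier results of these data known. Named genes were up to 3 called genes in each direction per role and comparison, complex II, Cycs, tissue isoforms with counterparts, the c subunit genes, up to 3 genes per list and exceptions marked in the text. Alternatives covered scaling, filter, floor, variance prior, probe set choice, arrays fitted, array weights, replicate block, size limit and leaving out each array.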

Additional observations from a re-analysis of the deposited data

How the results depend on the processing

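The results were recomputed under 23 alternatives, 9 of which left out 1 array each. In motor neuron cultures against ES cells, leaving out 1 array gave 18 to 23 respiratory chain genes called higher, 7 called lower in each case and a median log2 difference of 0.46 to 0.56 (0.458 without the second ES array). In Cdx2 and FGF cultures against motor neuron cultures it gave 3 to 4 higher, 0 lower and a median of -0.09 to -0.06, and in Cdx2 and FGF cultures against ES cells 15 to 17 higher, 4 to 5 lower and a median of 0.43 to 0.53. Median centring gave 39 higher and a median of 0.936 in motor neuron cultures against ES cells, and 40 higher, 2 lower and 0.933 in Cdx2 and FGF cultures against ES cells. It also raised the share of all genes called higher, to 33.5% and 34.2%. The mean of all probe sets of a gene, dim and untested ones included, lowered these medians to 0.405 and 0.39. It turned Atp5g2 to -1.07 in motor neuron cultures against ES cells (adjusted p = 5.66e-04). Without x_at and s_at probe sets Sdhd turned to 1.70 there (adjusted p = 1.97e-06), and 3 genes were called lower in Cdx2 and FGF cultures against ES cells. Each probe set by itself gave 38 higher and 12 lower, 8 higher, and 32 higher and 9 lower in the order of the comparisons above, and no size limit gave 55 and 12, 7 and 4, and 54 and 11. With the replicate number as a block, the counts were 20 and 7, 4 and 0, and 16 and 5, and no count of calls changed. With the size limit kept, 1929 values of single named genes held their direction and their side of the threshold, 21 passed it newly, 28 no longer did and 2, named above, reversed. Cox7c in Cdx2 and FGF cultures against motor neuron cultures passed with only those 6 arrays fitted (adjusted p = 0.0149, against 0.063). The 3 arrays per group, the spread of the ES arrays and probe sets near the background limit what can be seen.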

Other observations

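Among the members not tested, Ndufb4 had levels of 4.20, 3.95 and 3.99 in Cdx2 and FGF cultures, 2.60, 2.66 and 2.44 in motor neuron cultures, and 2.17 on each ES array, but other probe sets for Ndufb4 carry several symbols and were left out. Ndufa4l2, a hypoxia-linked relative of Ndufa4, was at 4.08, 3.51 and 3.87 in Cdx2 and FGF cultures. Motor neuron cultures had 2.87, 2.87 and 2.62 for it, and ES cells 5.54, 2.17 and 2.17, where 1 array was high. Cox8b and Cox8c, muscle and testis isoforms of subunit 8, stayed under 4 on all 9 arrays. Ndufb1 stayed near 4, with 4.05 on 1 motor neuron array as its highest level.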
